A study of Mus musculus with 6 samples.

Results

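The 8 genes described here encode small surface proteins of the Ly6 family (Ly6a, Ly6c1, Ly6c2, Ly6d and Ly6e) and of the Ifitm family (Ifitm1, Ifitm2 and Ifitm3). They were picked by name, with the difference between the study's genotypes already known, so their own differences between genotypes are given as a description and not as a test. A gene was read from array rows whose annotation names that gene alone, and its rows were averaged. This gave a value for 5 of the 8 genes (Ly6d, Ly6e, Ifitm1, Ifitm2 and Ifitm3) out of 19935 genes measured. Ly6c1 and Ly6c2 have no row of their own and share 2 rows between them, which are given as shared rows. Ly6a is not analysed here.

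The study profiled T cells sorted from mouse lymph nodes as CD4+CD62L- and labelled resting, with no treatment. All animals carried the conditional Dicer lox/lox allele. The Dicer WT group had no CD4Cre, and the Dicer KO group was CD4Cre positive, so that deletion is driven by the Cd4 promoter from T cell development onward. Each genotype has 3 samples, which the design text calls biological replicates, and 1 Affymetrix MoGene 1.0 ST array was hybridised per sample. No age or strain is known here for the animals. The arrays are called WT 1 to 3 and KO 1 to 3 below. The row of Dicer1, the targeted gene, read 0.12, 0.02 and -0.10 in Dicer WT and 0.21, -0.02 and -0.09 in Dicer KO (log2 difference 0.02 ± 0.09 SE, n = 3 per genotype, limma adjusted p = 0.949). Where its probes lie relative to the deleted exons was not examined, so this row cannot decide whether the deletion took place. Each sample's genotype is as labelled. WT 3 and KO 3 stood apart from the other arrays on the second principal component of all genes, at -14.1 and -10.5 against -1.89 to 10.2.

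Ly6 proteins are small cysteine-rich proteins held on the outer face of the cell by a glycosylphosphatidylinositol (GPI) anchor. On T cells several of them rise with activation or with exposure to interferon, and Ly6a (Sca-1) and Ly6c are used as surface markers of T cell subsets. Ifitm proteins are small membrane proteins with a CD225 domain. Ifitm3 sits in endosomal membranes and restricts the entry of viruses such as influenza virus, and Ifitm1 is found more at the cell surface. Interferons signal through receptor-bound Janus kinases to STAT factors, which act at DNA elements known as ISRE (for type I interferon) and GAS (for interferon gamma).

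Promoter windows of 300 bases, 250 before and 50 after an annotated start, were found in the RefSeq table of build GRCm38.p6 for 5 of the 8 genes: Ifitm1, Ifitm2, Ifitm3, Ly6c1 and Ly6c2. Both strands were searched for the ISRE core, which is GAAA followed by 2 bases of any kind and GAAA again, and for the GAS pattern TTCNNNGAA. The ISRE core was found at 2 places in Ifitm3, 1 place in Ifitm2 and 0 places in the windows of the other 3 genes. Among all windows of this length, 3.44% hold the ISRE core and 8.30% hold the GAS pattern. The stretches of Ifitm3 and Ifitm2 that hold the matches are shown first, with each ISRE core in capitals. The last 80 bases before the start of Ifitm1, Ly6c1 and Ly6c2 follow, as genes of these families without the letters.
Ifitm3, chr7:141010715-141010744, minus strand, bases 1 to 30 after the start: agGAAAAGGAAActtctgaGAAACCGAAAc
Ifitm2, chr7:140955980-140956009, minus strand, bases -48 to -19: agGAAAAGGAAAttgctagagaaagggcgg
Ifitm1, chr7:140967996-140968075, plus strand, bases -80 to -1: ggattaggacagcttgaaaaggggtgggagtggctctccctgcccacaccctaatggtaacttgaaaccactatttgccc
Ly6c1, chr15:75048838-75048917, minus strand, bases -80 to -1: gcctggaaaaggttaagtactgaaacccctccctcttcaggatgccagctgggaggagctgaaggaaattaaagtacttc
Ly6c2, chr15:75111972-75112051, minus strand, bases -80 to -1: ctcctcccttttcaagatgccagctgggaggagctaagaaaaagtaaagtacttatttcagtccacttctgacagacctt

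Ifitm3 and Ifitm2 share the same first ISRE core. The shown stretches were cut to place this core at the same position, and 18 of their 30 bases then match by position. This count therefore includes the core itself. Aligned over the 250 bases before the start, Ifitm3 was 49.1% identical to Ifitm2 and 49.1% identical to Ifitm1. The same alignment gave 40.7% to 47.0% between windows of Ly6c1 or Ly6c2 and those of the Ifitm genes. The 49.1% is thus only slightly above the values between the 2 families. The second ISRE core is in the Ifitm3 stretch alone, where a GAS pattern at bases 14 to 22 overlaps it. Both matches of Ifitm3 lie just after the annotated start, and that of Ifitm2 lies before it. For Ly6c1 and Ly6c2, the longest run common to the 250 bases before their first annotated starts is 20 bases. A match is a description of the letters and not of a site in use.

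Ifitm3 showed the largest difference of the measured genes. Each log2 value given here is relative to the middle of its own row, because the deposited rows had their median across the 6 arrays set to 0, and it is therefore not a level. Ifitm3 read -0.83, -1.10 and -0.68 in Dicer WT and 0.79, 0.68 and 1.03 in Dicer KO, each in the order of the array numbers. All Dicer KO arrays were above all Dicer WT arrays, and the lowest Dicer KO array exceeded the highest Dicer WT array by 1.36. The difference of 1.71 ± 0.13 (SE, n = 3 per genotype) is 3.26-fold, and 13 of the 19935 genes, Ifitm3 included, had a difference at least this large.

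Ifitm1 and Ifitm2, the neighbours of Ifitm3 on chromosome 7, differed little between genotypes. Ifitm1, the more surface-located family member, read -0.02, -0.01 and -0.12 in Dicer WT and 0.10, -0.001 and 0.24 in Dicer KO. The genotypes were separated by only 0.0065, and KO 3 was the highest array. The difference was 0.16 ± 0.07 (SE), or 1.12-fold. Ifitm2, a close relative of Ifitm3, read -0.09, -0.02 and -0.13 in Dicer WT and 0.06, 0.02 and 0.10 in Dicer KO. The genotypes were separated by 0.04, and the difference was 0.14 ± 0.05 (SE), or 1.10-fold. Because the table holds no levels, a transcript that changed little and a row near background cannot be told apart for these genes.

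The rows behind Ifitm1 and Ifitm2 did not all read alike. Ifitm1 has 2 rows. The first read -0.04, -0.03 and -0.16 in Dicer WT and 0.17, 0.03 and 0.48 in Dicer KO, a difference of 0.31 ± 0.11 (SE). The second differed by 0.02 ± 0.05, with overlapping genotypes, so the averaged value of Ifitm1 is a mixture of a row that was higher in Dicer KO and a row that was flat. Ifitm2 has 3 rows with differences of 0.14, 0.17 and 0.10, of which the first alone had genotypes that did not overlap. The rows of a gene list the same transcript accessions in the annotation. Without WT 3 and KO 3, the averaged Ifitm1 difference was 0.065.

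Ly6e, a GPI-anchored protein first described on immature thymocytes, was 2.01-fold higher in Dicer KO. It read -0.72, -0.67 and -0.33 in Dicer WT and 0.33, 0.46 and 0.53 in Dicer KO. The genotypes were separated by 0.65, and WT 3 was the closest of its group to the Dicer KO arrays. The difference was 1.01 ± 0.11 (SE), which 95 of the 19935 genes, Ly6e included, reached.

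Ly6d, known as a marker of early B lineage cells, differed less. It read -0.38, -0.10 and -0.23 in Dicer WT and 0.10, 0.11 and 0.20 in Dicer KO. The genotypes were separated by 0.21, and WT 1 was the lowest array. The difference was 0.38 ± 0.08 (SE), or 1.30-fold.

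The rows shared by Ly6c1 and Ly6c2, whose products carry the Ly6C antigen of memory T cells and monocytes, had larger differences than Ly6e. The first shared row read -0.71, -0.83 and -0.57 in Dicer WT and 0.65, 0.71 and 0.57 in Dicer KO, a difference of 1.35 ± 0.08 (SE), or 2.54-fold. The second read -0.66, -0.80 and -0.51 in Dicer WT and 0.59, 0.68 and 0.51 in Dicer KO, a difference of 1.25 ± 0.09 (SE), or 2.38-fold. The rows differed by at most 0.06 on any array, and neither tells Ly6c1 from Ly6c2. On a single row without overlap, the highest Dicer WT and the lowest Dicer KO array mirror each other around 0, as -0.57 and 0.57 do here, because the row was centred on its median.

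**Figure D1:**
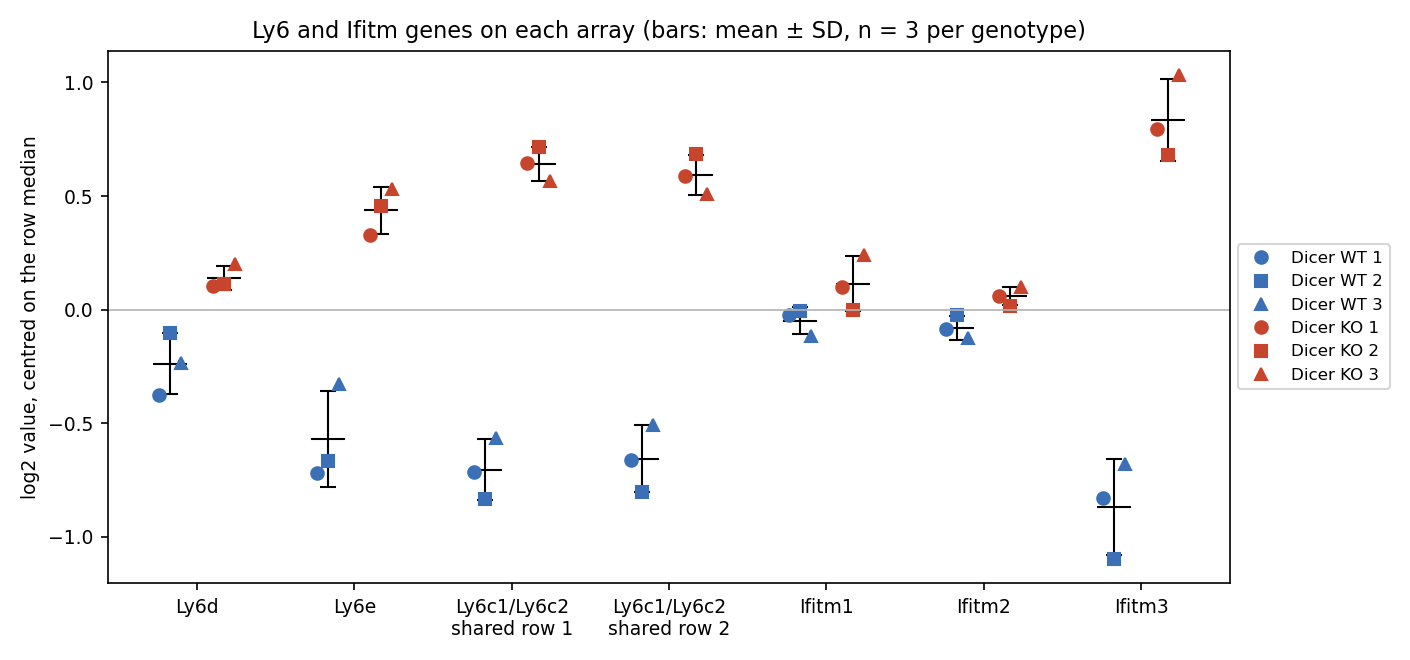
Each point is the log2 value of 1 array, centred on the median of its row, for the 5 genes with a row of their own and for the 2 rows shared by Ly6c1 and Ly6c2 (blue, Dicer WT; red, Dicer KO; bars, mean ± SD, n = 3 per genotype). Ifitm3, Ly6e and the shared rows lie far apart between genotypes, Ly6d is separated by 0.21, and Ifitm1 and Ifitm2 are separated by 0.0065 and 0.04.

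Ordered by difference, Ifitm3 stood first, then the shared rows of Ly6c1 and Ly6c2, Ly6e, Ly6d, Ifitm1 and Ifitm2. The SE ranges of the shared rows overlapped, as did those of Ifitm1 and Ifitm2, and those of the other neighbours in this order did not. All 5 measured genes were higher on every Dicer KO array than on any Dicer WT array, as were 13.5% of all genes. Ifitm3, Ly6e and Ly6d passed the threshold used for all genes (limma, adjusted p 0.05), where 8.73% of all genes passed, 5.94% as higher and 2.79% as lower. Nothing is read from these counts, since the same contrast chose the genes. Ly6d was not past the threshold without any 1 of WT 1, WT 3, KO 1, KO 2 or KO 3, which left 2 genes past it.

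The array with the highest or lowest value within a genotype differed between the genes. In Dicer KO, Ifitm3, Ly6e, Ly6d, Ifitm1 and Ifitm2 were highest on KO 3, while the shared rows of Ly6c1 and Ly6c2 were highest on KO 2 and lowest on KO 3. In Dicer WT, Ifitm3 and the shared rows were lowest on WT 2, Ly6e and Ly6d on WT 1, and Ifitm1 and Ifitm2 on WT 3. Without WT 3 and KO 3, the differences were 1.70 for Ifitm3, 1.08 for Ly6e, 0.35 for Ly6d and 1.45 and 1.37 for the shared rows.

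The genes most like each member were found by the root mean square distance between profiles over the 6 arrays, after subtracting each gene's mean. The other members, unnamed gene models, microRNA genes, antigen receptor segments, and olfactory and vomeronasal receptor genes were left out of this search. Closest to Ifitm3 were the chloride channel protein Clic4 (distance 0.12, Pearson r 0.99), the nucleic acid sensor Zbp1 (0.15, r 1.00) and the interferon-inducible GTPase Irgm1 (0.16, r 0.99). Closest to Ly6e was Sting1, the adaptor of cytosolic DNA sensing, at 0.04 (r 1.00), with -0.70, -0.60 and -0.33 in Dicer WT and 0.33, 0.43 and 0.47 in Dicer KO. Dtx3l, a ubiquitin ligase that partners Parp9, and the transmembrane protein gene Tm9sf2 came next at 0.08 and 0.09. The profiles of Ly6d lay nearest Sbno2 (0.03), Kdm5b (0.04) and She (0.04). For Ifitm1 and Ifitm2, whose values stayed close to 0, the nearest genes lay at distances of 0.018 to 0.023. They were Kcnmb1, Cdkn2d and Col1a2 for Ifitm1, and Ctxn2, Spata5 and Srrt for Ifitm2. The correlations rest on 6 arrays that share the genotype difference, and among the many genes searched some close profiles are found for any gene.

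The genes next to the members on chromosomes 15 and 7 were read in the same fit. On chromosome 15, 27 other genes were measured within the stretch from Ly6d to Ly6c2 or among the 10 nearest on each side, and their median difference was 0.004, against -0.01 for all genes. Ly6i alone among them rose, by 0.50 ± 0.11 (SE, limma adjusted p = 0.036), from -0.23, -0.09 and -0.24 in Dicer WT to 0.53, 0.34 and 0.09 in Dicer KO. It lies between Ly6e and Ly6a and is a close copy of other Ly6 genes, and whether its row also reads those genes was not tested. Its call was lost without any 1 array except KO 3 (adjusted p 0.0655 to 0.128). At the far end, Top1mt, the mitochondrial topoisomerase, fell by 0.59 (SE 0.07, adjusted p = 0.00381).

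On chromosome 7, 20 neighbours of the Ifitm genes had a median difference of 0.01 and a range of -0.27 to 0.20. Ifitm5 and Ifitm6, which flank the measured Ifitm genes, differed by 0.041 ± 0.094 and 0.039 ± 0.086 (adjusted p = 0.879 and 0.873). Bet1l, a SNARE protein of the Golgi, changed by -0.20 ± 0.04 (adjusted p = 0.0385), and Sigirr, an inhibitor of interleukin 1 and Toll-like receptor signalling, by -0.27 ± 0.06 (adjusted p = 0.0467). Bet1l lost its call without any 1 array (adjusted p 0.0737 to 0.137), and Sigirr lost it without WT 1, WT 2, KO 1 or KO 2 (0.124 to 0.15). Over both stretches, 1 gene rose and 3 fell, where 5.94% of all genes passed as higher and 2.79% as lower, and nothing particular to the neighbours is read from so few. No gene rose without any 1 array but KO 3, and 1 gene fell without WT 1, WT 2, KO 1 or KO 2.

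**Figure D2:**
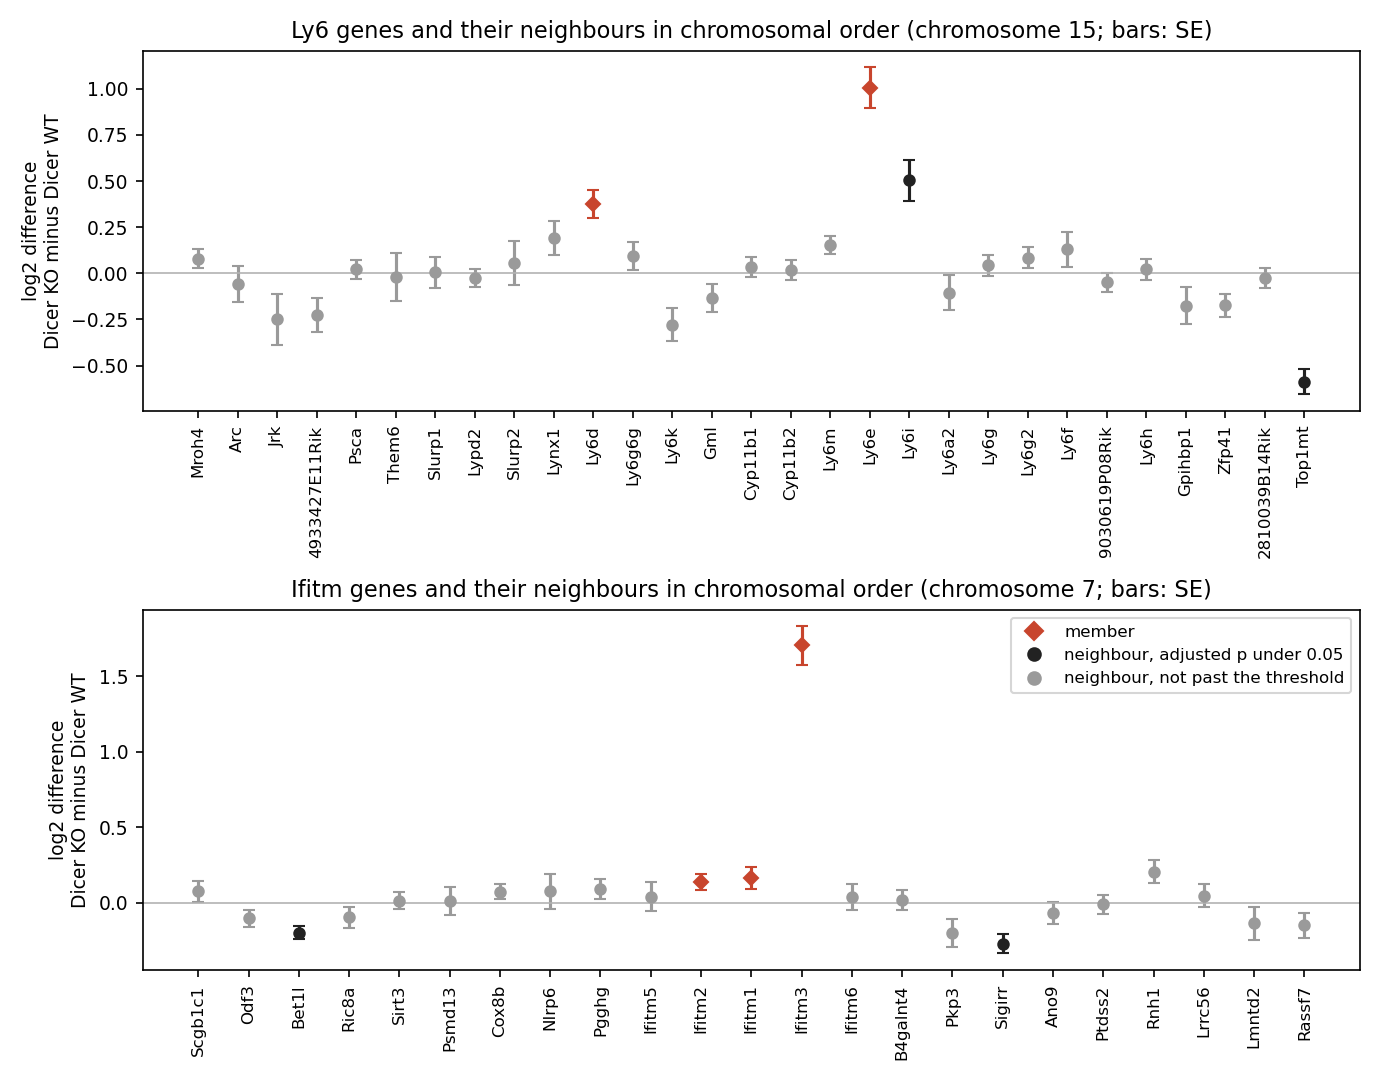
Points give how far Dicer KO lay above or below Dicer WT (log2, with SE), for genes in chromosomal order around the Ly6 genes (chromosome 15, top) and the Ifitm genes (chromosome 7, bottom); red diamonds are members, black points are neighbours with adjusted p under 0.05 and grey points are the rest. Ly6e at 1.01 and Ifitm3 at 1.71 stand among neighbours that, except for Ly6i at 0.50 and Top1mt at -0.59, lie between -0.28 and 0.20.

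The wider families were counted next. Of 34 other genes of the Ly6 and urokinase receptor family, Ly6i was the only gene that passed the threshold (2.94% of the list, against 5.94% of all genes passing as higher), and the list median was 0.01, against -0.01 for all genes. At an unadjusted p under 0.05, 3 were higher and 1 lower. The neighbours Ly6k (-0.28 ± 0.09, adjusted p = 0.113) and Ly6m (0.15 ± 0.05, adjusted p = 0.112) did not pass, nor did the urokinase receptor gene Plaur (0.21). Of 8 other genes with a CD225 domain, limma called 0 at adjusted p 0.05, and at an unadjusted p under 0.05 it called 0 higher and 2 lower. Their median was -0.06, and the lowest p belonged to Trarg1 (-0.15 ± 0.05, adjusted p = 0.145), Ifitm10 (-0.19 ± 0.07, adjusted p = 0.168) and Syndig1 (-0.06 ± 0.05, adjusted p = 0.628).

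Interferon receptor and kinase genes were in part higher in Dicer KO. Of 12 measured genes for receptors, Janus kinases, STATs and their partner Irf9, 6 rose and 6 did not pass, where 5.94% of all genes passed as higher, and the median was 0.38. Il10rb, a receptor chain shared by interleukin 10 and type III interferon, rose by 1.21 ± 0.07 (adjusted p = 0.000624). Ifnar1, a chain of the type I interferon receptor, rose by 0.90 ± 0.07 (adjusted p = 0.00128), Stat3 by 0.75 ± 0.08 and the kinase Jak1 by 0.68 ± 0.08. Ifngr2, a chain of the interferon gamma receptor, rose by 0.44 ± 0.08 (adjusted p = 0.0147), but not without WT 1, WT 2 or KO 2 (0.0545 to 0.064).

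Irf9 did not pass (0.31 ± 0.09, adjusted p = 0.0847). Of 7 other interferon regulatory factors, Irf1 (0.77 ± 0.07, adjusted p = 0.00202), Irf2 (0.49 ± 0.09, adjusted p = 0.0154) and Irf7 (0.80 ± 0.17, adjusted p = 0.0339) rose, and the median was 0.40. They make up 42.9% of the list, where 5.94% of all genes passed as higher. Irf7 was not called without WT 1, WT 2, KO 1 or KO 2 (0.0728 to 0.12) and Irf2 was not called without WT 1 (0.0639), which left 1 factor called without WT 1. Of 8 inhibitors of the pathway, 4 rose (50%, against 5.94% of all genes): Socs3 (0.87 ± 0.07, adjusted p = 0.00134), Socs1 (0.33 ± 0.07), the DNA exonuclease Trex1 (0.44 ± 0.09) and Usp18, which removes Isg15 from proteins (1.60 ± 0.35, adjusted p = 0.036). The adjusted p of Trex1 was 0.0257 and that of Socs1 0.0313, and each of Usp18, Trex1 and Socs1 lost its call without 1 of several arrays (0.0579 to 0.118). The number was 1 without WT 1 or KO 1 and 2 without WT 2 or KO 3. Usp18 read -1.26, -1.90 and -0.33 in Dicer WT, the widest spread of the 4. Of 8 interferon genes themselves, limma called 0 at adjusted p 0.05, and at an unadjusted p under 0.05 it called 0 higher and 1 lower. Their median was -0.03, with Ifna2 at -0.32 ± 0.12 (adjusted p = 0.182), Ifna5 at -0.13 ± 0.06 (adjusted p = 0.265) and Ifnk at 0.08 ± 0.06 (adjusted p = 0.51).

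Other interferon-inducible effector genes were higher in Dicer KO. Of 35 measured, 23 rose (65.7%), where 5.94% of all genes passed as higher. This list, like the others, was chosen with earlier results of these data known, so the count is a description. All 35 had a difference above 0, and the median was 0.82, against -0.01 for all genes. The GTPases Gbp3 (1.74 ± 0.09, adjusted p = 0.000273) and Iigp1 (3.11 ± 0.21, adjusted p = 0.000799), the nucleotide hydrolase Samhd1 (1.30 ± 0.07, adjusted p = 0.000273), Zbp1 (1.43 ± 0.10) and Parp14 (1.29 ± 0.11) had the lowest p. The number that rose was 14 without WT 1 and 15 without KO 2. The median of these genes by array was -0.44, -0.74 and -0.28 in Dicer WT and 0.54, 0.34 and 0.26 in Dicer KO. Ifitm3 and the shared rows of Ly6c1 and Ly6c2, like this median, were lowest on WT 2, while Ifitm3 and Ly6e were highest on KO 3, where this median was lowest of the Dicer KO arrays. Of the 35, 25 have a promoter window in the RefSeq table. The ISRE core shown above for Ifitm3 is in 12 of these 25 (48%), against 3.99% of all genes with a window. The list was chosen by name as interferon-inducible, so this share describes the list and not these arrays. Of the 8 interferon genes, of which 0 passed the threshold, 3 (37.5%) hold the core too. A link between the core and the differences was not tested.

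**Figure D3:**
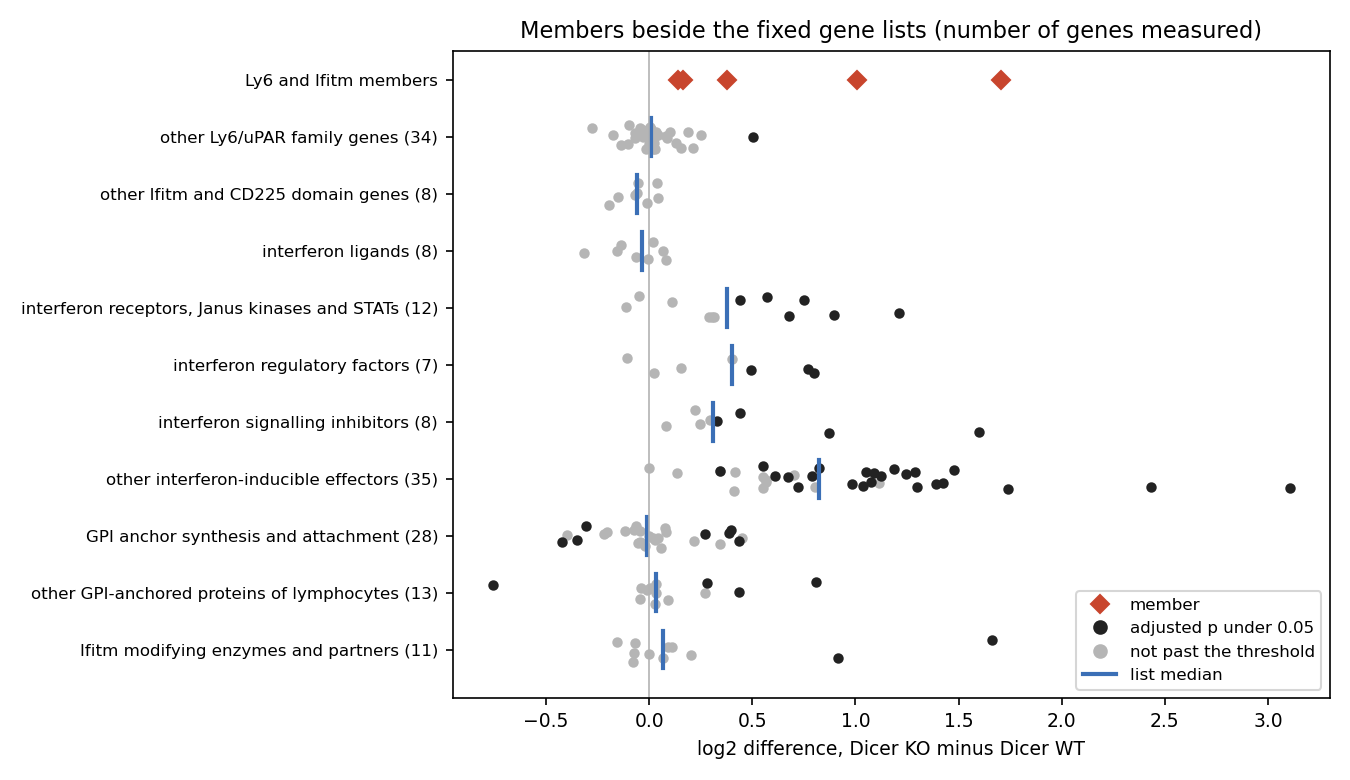
Each point is 1 gene's difference between genotypes (log2, Dicer KO less Dicer WT), for the 5 measured members (red diamonds) and for the gene lists named at the left (black, adjusted p under 0.05; grey, the rest; blue bar, list median; points are spread vertically for legibility). The effector list lies highest, with a median of 0.82, and the medians of the wider Ly6 and CD225 families are 0.01 and -0.06.

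Genes that build the GPI anchor carried by Ly6 proteins moved in both directions. Of 28 measured, 4 rose (14.3%) and 3 fell, where 5.94% of all genes passed as higher and 2.79% as lower. The median was -0.01, as for all genes. Pigt, a subunit of the transamidase that attaches the anchor, rose by 0.40 ± 0.05 (adjusted p = 0.00493) and the mannosyltransferase Pigm by 0.44 ± 0.06 (adjusted p = 0.00738), as did Pigc (0.39 ± 0.08). Dpm2 and Dpm3, subunits of the enzyme that makes dolichol phosphate mannose, fell by 0.42 and 0.31 (adjusted p = 0.00576 and 0.0238). The number that rose was 2 without WT 1, WT 2, KO 2 or KO 3, and the number that fell was 1 without WT 1, KO 1 or KO 2. Pigc and Dpm3 each lost their call without any 1 of WT 1, WT 2, KO 1, KO 2 or KO 3 (adjusted p 0.0532 to 0.103).

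Of 13 other GPI-anchored proteins of lymphocytes, Sema7a rose by 0.81 ± 0.10 (adjusted p = 0.00494), Thy1 by 0.44 ± 0.09 (adjusted p = 0.0342) and Cd52 by 0.28 ± 0.07 (adjusted p = 0.0458). Thy1 was not called without WT 1, WT 2, KO 1 or KO 2 (0.089 to 0.126), and Cd52 without any 1 array but KO 1 (0.0633 to 0.138). Cd55, which protects cells from complement, changed by -0.76 ± 0.17 (adjusted p = 0.0394) and was not called with quantile normalization. Without WT 1, WT 2 or KO 2, 1 gene rose and Cd55 was not called (adjusted p 0.107 to 0.131). The median was 0.03. With all arrays, 3 of the 13 rose (23.1%) and 1 fell, where 5.94% of all genes passed as higher and 2.79% as lower.

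Among 11 enzymes and partners that act on Ifitm proteins, 2 rose (18.2%), where 5.94% of all genes passed as higher. Nedd4, the ubiquitin ligase that marks Ifitm3 for degradation, rose by 1.66 ± 0.16 (adjusted p = 0.00222), from -0.83, -0.56 and -0.73 in Dicer WT to 1.19, 1.10 and 0.56 in Dicer KO. Setd7, a lysine methyltransferase that modifies Ifitm3, rose by 0.92 ± 0.09 (adjusted p = 0.00184). The median of the 11 was 0.07.

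Markers of other cells that carry these proteins were measured beside them, as differences only, because the centred values cannot show whether a marker or the sorted CD4 T cell identity is present at all. Ly6d marks B lineage cells. Of 9 B cell markers, Bank1 rose (0.71 ± 0.11, adjusted p = 0.00975), but not without KO 2 (0.0515). Bank1 is 11.1% of the list, where 5.94% of all genes passed as higher. Without WT 2, 4 of the 9 passed, where 763 of 19935 genes passed as higher. All 9 had a difference above 0, with a median of 0.33, against -0.01 for all genes. Their mean ranged from -0.45 to 0.05 on the Dicer WT arrays and from 0.08 to 0.18 on the Dicer KO arrays. Within Dicer WT, Ly6d and the B cell median had the same order of arrays, lowest on WT 1 (-0.38 and -0.56) and highest on WT 2 (-0.10 and 0.02). In Dicer KO they did not, with Ly6d highest on KO 3 and the median highest on KO 1. The part of B cells in the Ly6d difference was not tested.

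Ly6C is abundant on monocytes and plasmacytoid dendritic cells. Of 9 monocyte and macrophage markers, Lyz2 rose (0.69 ± 0.12, adjusted p = 0.0165), but not without WT 1 or KO 2 (0.0654 to 0.0699). Lyz2 is 11.1% of the list, where 5.94% of all genes passed as higher. The list median was 0.01, and the mean ranged from -0.03 to 0.01 in Dicer WT and from -0.02 to 0.09 in Dicer KO. Of 5 plasmacytoid dendritic cell markers, Ccr9, which T cells also express, rose by 1.18 ± 0.20 (adjusted p = 0.015), but not without WT 1 (0.0611). Ccr9 is 20% of the list, against 5.94% of all genes passing as higher. Bst2 of this list is also an interferon-inducible effector. The mean ranged from -0.21 to -0.12 in Dicer WT and from 0.03 to 0.27 in Dicer KO, and the list median was 0.12. The other 4 markers did not pass, with differences of 0.41 for Bst2, 0.12 for Tcf4, 0.08 for Cox6a2 and -0.13 for Siglech, a defining marker. The part of these cells in the differences of the shared Ly6c1 and Ly6c2 rows was not tested. In a sorted bulk sample, more cells that carry a transcript and more transcript per cell cannot be told apart.

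Ly6C and Ly6a are also carried by T cell subsets. Of 11 effector and memory T cell markers, limma called 0 at adjusted p 0.05, and the median was 0.17. The lowest p belonged to Prf1 (0.67 ± 0.19, adjusted p = 0.0776), Ccl5 (0.35 ± 0.11, adjusted p = 0.0971) and Il2rb (0.39 ± 0.15, adjusted p = 0.178), and 3 were higher and 0 lower at an unadjusted p under 0.05. Without any 1 of WT 3, KO 1 or KO 3, 1 of these markers passed. Of 6 naive T cell markers, Ccr7, the lymph node homing receptor, rose by 0.64 ± 0.07 (adjusted p = 0.00247), and the median was 0.38. Ccr7 is 16.7% of that list, against 5.94% of all genes passing as higher. Of 10 general T cell markers, Cd4 (0.67 ± 0.07, adjusted p = 0.00328), Cd2 and Thy1 rose, and Cd5 fell by 0.44 (SE 0.06, adjusted p = 0.00704). The 3 that rose are 30% of the list, where 5.94% of all genes passed as higher and 2.79% as lower. The list median was 0.16, and Thy1 was not called without WT 1, WT 2, KO 1 or KO 2 (adjusted p 0.089 to 0.126). Of 6 endothelial markers, Pecam1, which T cells also carry, rose by 0.75 ± 0.07 (adjusted p = 0.00158). Pecam1 is 16.7% of that list, where 5.94% of all genes passed as higher. Only 2 of the 6 had a difference above 0, and the list median was -0.02. In the 7 lists for CD8 T, plasma, neutrophil, conventional dendritic, NK, stromal and erythroid cells, limma called 0 of 31 genes at adjusted p 0.05, and at an unadjusted p under 0.05 it called 1 higher and 2 lower. Without KO 1, 1 of the CD8 T cell markers was called lower.

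**Figure D4:**
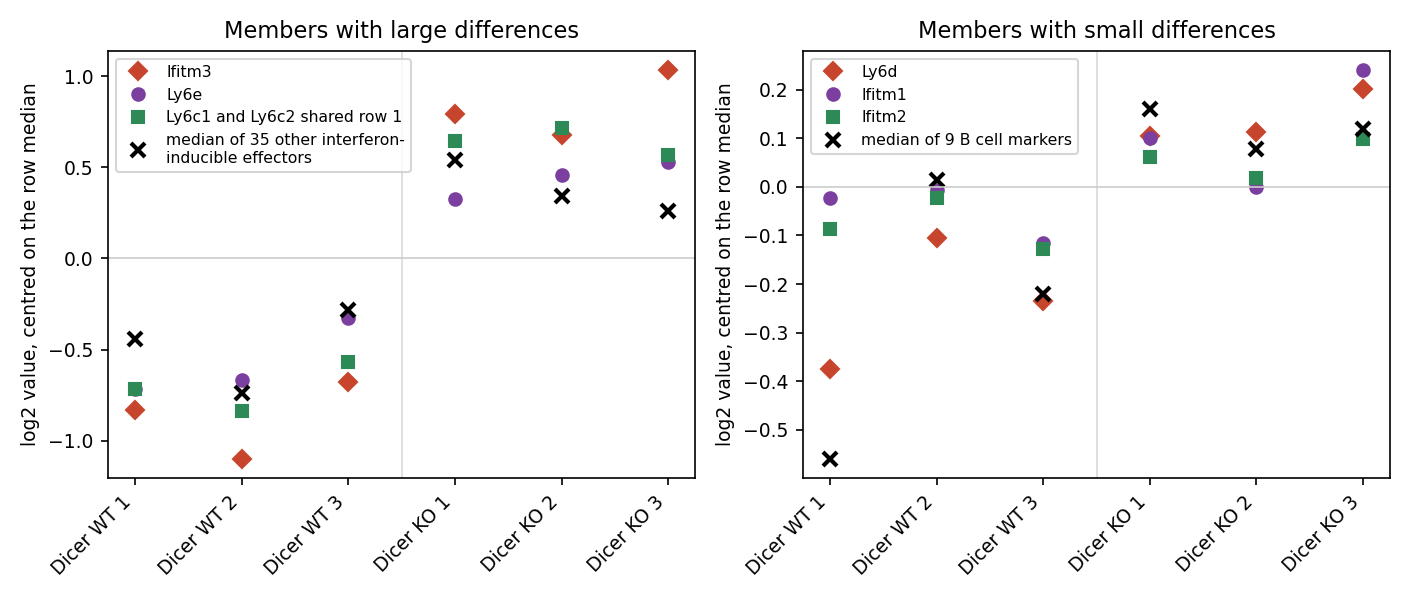
Points are log2 values centred on the row median, by array, for Ifitm3, Ly6e and the first shared row of Ly6c1 and Ly6c2 beside the median of 35 other interferon-inducible effectors (left) and for Ly6d, Ifitm1 and Ifitm2 beside the median of 9 B cell markers (right); the vertical axes differ. The effector median runs from -0.74 on WT 2 to 0.54 on KO 1, and the B cell median from -0.56 on WT 1 to 0.16 on KO 1.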

How the data were processed

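The authors deposited a table of 6 arrays with 28815 rows of log values. The log base is unstated, and the values as deposited by the authors were taken as log2, with each row centred on its median. MAS5 is named in the submitters' processing notes without its version or role, and further steps are not stated. The median of every row is 0 to within 5e-07, so levels are not known and low rows could not be filtered. The number of arrays limits precision. Gene names came from GEO's platform annotation, in which 21780 rows had 1 symbol, 1605 several and 5430 were unnamed here. By gene ID, 21689 rows took the symbol of the RefSeq table of GRCm38.p6. Rows of a gene were averaged.

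Genotypes were compared with limma 3.58.1 in R 4.3.3 (lmFit, eBayes), with Benjamini-Hochberg adjustment over 19935 genes and a threshold of 0.05, and every adjusted p is from this fit. The procedure was tested on simulated data in which the noise of each array was independent. That test does not cover a factor shared between arrays. Same-numbered samples of the genotypes had deviations that correlated at 0.27, -0.08 and 0.30, and differently numbered samples at -0.37 to 0.23. A factor shared by same-numbered samples is therefore possible. The sample titles do not state pairs, so the main fit used none, and a replicate block was run as an alternative. With that block the SE was 0.06 for Ifitm3 and 0.07 for Ly6e, against 0.13 and 0.11 in the main fit. The members and gene lists were chosen with earlier results of these data known. Genes named are the members; in each list, at most 5 genes past the threshold or, with none past it, at most 3 with the lowest p; neighbours past the threshold; and the 3 genes nearest to each member. Plaur, Ly6k, Ly6m, Ifitm5, Ifitm6, Irf9, Bst2, Tcf4, Cox6a2 and Siglech were named after their values were seen. A few list members had no row of their own and are not analysed here. Alternatives were leaving out each array, array centring, quantile normalization, a replicate block, robust eBayes, array weights, other treatment of a gene's rows and, added later, leaving out Dicer WT 3 and Dicer KO 3.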

Additional observations from a re-analysis of the deposited data

Results flagged for a closer look

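The 2 rows annotated to both Ly6c1 and Ly6c2 lie outside the gene-level comparison, because they name no gene alone, and were higher on every Dicer KO array than on any Dicer WT array. Their log2 differences were 1.35 and 1.25, and 12.4% of all array rows show the same lack of overlap. Which of Ly6c1 and Ly6c2 they read was not tested.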

How the results depend on the processing

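The 5 measured genes and the shared rows of Ly6c1 and Ly6c2 kept a difference above 0 under every alternative run. Leaving out arrays could not change this sign, because every Dicer KO array was above every Dicer WT array. The replicate block left these differences as in the main fit, so the sign under these alternatives is no support. With quantile normalization, Ifitm3 differed by 1.43 and the shared rows by 1.19 and 1.11. Ifitm1 differed by 0.31 on its row of widest spread and by 0.065 without WT 3 and KO 3. Leaving out 1 array moved the genes past the threshold between 26 (without WT 1) and 49 higher and between 1 (without WT 1 or KO 2) and 3 lower over all family and pathway lists (46 and 4 with all arrays), and between 0 and 1 higher and between 1 and 3 lower among the neighbours on chromosomes 15 and 7. With the replicate number as a block, 1 neighbour fell, Thy1, Bet1l and Sigirr lost their calls (adjusted p 0.0582, 0.0715 and 0.0789), Il2rb gained one (0.0484), and naive T cell, B cell and effector and memory T cell markers had 3, 2 and 1 genes higher against 1, 1 and 0. Over all genes, the block called 2063 against 1741, and the other list counts stayed within 1.5 times. Without WT 1, 849 genes were called, 1050 without WT 2 and 729 without KO 2, and array weights called 2537. Leaving out 1 array changed the sign of Alas2 (range -0.096 to 0.016; 0.010 without KO 2 and 0.0002 without KO 3), Cd8a (-0.27 to 0.10) and Klre1 (-0.086 to 0.0014). The causes were not tested. Without levels, what signal over background limits is not known.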
